A study of Mus musculus with 18 samples.

Results

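Starvation of wild-type macrophages was compared with normal feeding across all genes on the array. The comparison took 6 of the 18 samples of the series: 3 control and 3 starved samples of wild-type cells, both labelled with an oxygen concentration of 20, chosen by their titles and not by any measured value. The macrophages had been grown from the femoral marrow of male C57BL/6J mice, 8 weeks old, in a 7 day culture with M-CSF, which turns marrow progenitors into macrophages. Knockout samples (control and starved at oxygen 20, 3 each) came from mice without PHD3, the oxygen-sensing prolyl hydroxylase encoded by Egln3, and 3 wild-type samples at an oxygen concentration of 1 received normal feeding. The series title places the study in macrophage survival under stress. The labels give the oxygen values without a unit and call the animals untreated. The medium, the duration of starvation, and whether cells or mice were starved are unstated in the labels. The design text names 3 mice for each group, and whether samples of one number share a mouse is not given. The p-values measure the spread between samples of a group, which the fit pooled over all 18 samples of the series.

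Macrophages are phagocytes that clear dead cells and microbes, store and export lipid, remodel matrix and secrete chemokines. Cells short of nutrients commonly leave the cell cycle, slow ribosome production and recycle their contents in lysosomes. A cell short of sterols releases SREBP-2, a membrane-bound transcription factor that drives the genes of cholesterol synthesis, whereas a cell short of amino acids makes ATF4, which drives amino acid synthesis and transport genes.

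The values below are log2 spot signals minus the 75th percentile of their array, so that 0 marks that percentile. A difference is starved minus control on that log2 scale, with the standard error of the fit, and 1 corresponds to a doubling. Adjusted p-values are limma's moderated test with Benjamini-Hochberg adjustment over all genes tested, with a threshold of 0.05, and "rose" and "fell" are used of genes past it. Between 58.7% and 61.6% of spots per sample were well above background, and no spot was saturated. Control sample 1 correlated less with the other controls (r = 0.991 and 0.992 across genes, against 0.994 between controls 2 and 3). Starved sample 3 correlated less with the other starved samples (r = 0.989 and 0.991, against 0.994 between starved samples 1 and 2). Without both samples 2016 genes passed, against 2602 with them.

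Of 20813 genes tested, 2602 passed (12.5%), of which 1350 rose (6.49%) and 1252 fell (6.02%). The list counts below are to be read beside these shares, and no list was tested as a set. A change of at least 2-fold was seen in 847 of them, 505 upward and 342 downward. The control and starved samples of one number lay on one slide, and 2584 of the 2602 genes moved the same way on all 3 slides. The 2602 genes were chosen on these same values, which favours such agreement, so it is no separate support. The median difference over all genes was 0.02. Without starved sample 1 the count of genes past the threshold was 1695, with 899 higher and 796 lower, and without control sample 3 the genes that fell numbered 821. The genes named below as rising or falling stayed past the threshold whichever of the 6 samples was left out, unless another result is given beside them.

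Among the named genes, chosen by the rule given with the processing, Ccn2, the matricellular growth factor CTGF, showed the deepest fall. It measured -0.06, -0.07 and -0.53 in the 3 control samples and -8.51, -6.39 and -8.67 in the starved samples, where its probe was not well above background in any. The starved samples thus lay far below every control sample, with a difference of -7.64 ± 0.50 (adjusted p = 3.8e-07). Since the starved level is only a bound, the fall was at least 73.1-fold, where the dim group is set to the lowest signal that was well above background on each array; this bound is not strict. Myl9, a myosin light chain of smooth muscle type, fell from 0.02, -0.10 and -0.56 to -4.59, -4.60 and -5.38 and stayed well above background in all samples. Ngp and Ltf, proteins of the secondary granules of neutrophils, differed by -5.82 ± 0.59 (at least 15.1-fold) and -4.59 ± 0.57; Ltf was well above background in 1 of the 3 starved samples. Cnn1 and Actg2, calponin and gamma smooth muscle actin, differed by -4.65 and -4.38 (at least 9.2-fold and 15.2-fold). The remaining large falls were Timp3, Itga11, Ccn4, Lurap1l, Col5a1 and Nid1, between -4.22 and -3.49, all of which were not well above background in every starved sample.

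Megf10, a receptor of the engulfment family, rose from a level that the array did not resolve. Its probe was not well above background in any control sample (-8.52, -8.43 and -8.13) and read -4.19, -4.23 and -4.06 in the starved samples, a rise of at least 4.9-fold (adjusted p = 3.9e-07). Cdkn1c, which encodes the cyclin-dependent kinase inhibitor p57, rose from -2.39, -2.00 and -1.62 to 1.46, 1.72 and 1.86, a difference of 3.68 ± 0.32. Every starved sample lay more than 3 log2 units above the highest control sample for Cdkn1c. Pdpn, the mucin-like surface glycoprotein podoplanin, rose from 0.40, -0.19 and 0.12 to 3.27, 3.14 and 3.55 (3.21 ± 0.18, adjusted p = 6.1e-08). Inhba, the subunit of activin A, rose by 3.38 ± 0.26, the tetraspanin gene Tspan7 by 3.49 ± 0.23 and the P5-type ATPase gene Atp13a4, well above background in 1 of the 3 control samples, by 3.39 ± 0.31. The list of the 12 largest rises was completed by the desaturases Fads2 and Scd1 and the protease Mmp3, described below, and by Cyp2s1, Plxna4 and Gsta1, none of which was well above background in a control sample. Their differences were 3.66, 3.58 and 3.17, with rises of at least 3.79-fold, 5.23-fold and 2.57-fold, and only 1 of the 2 Plxna4 probes was higher in starved cells.

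**Figure D1:**
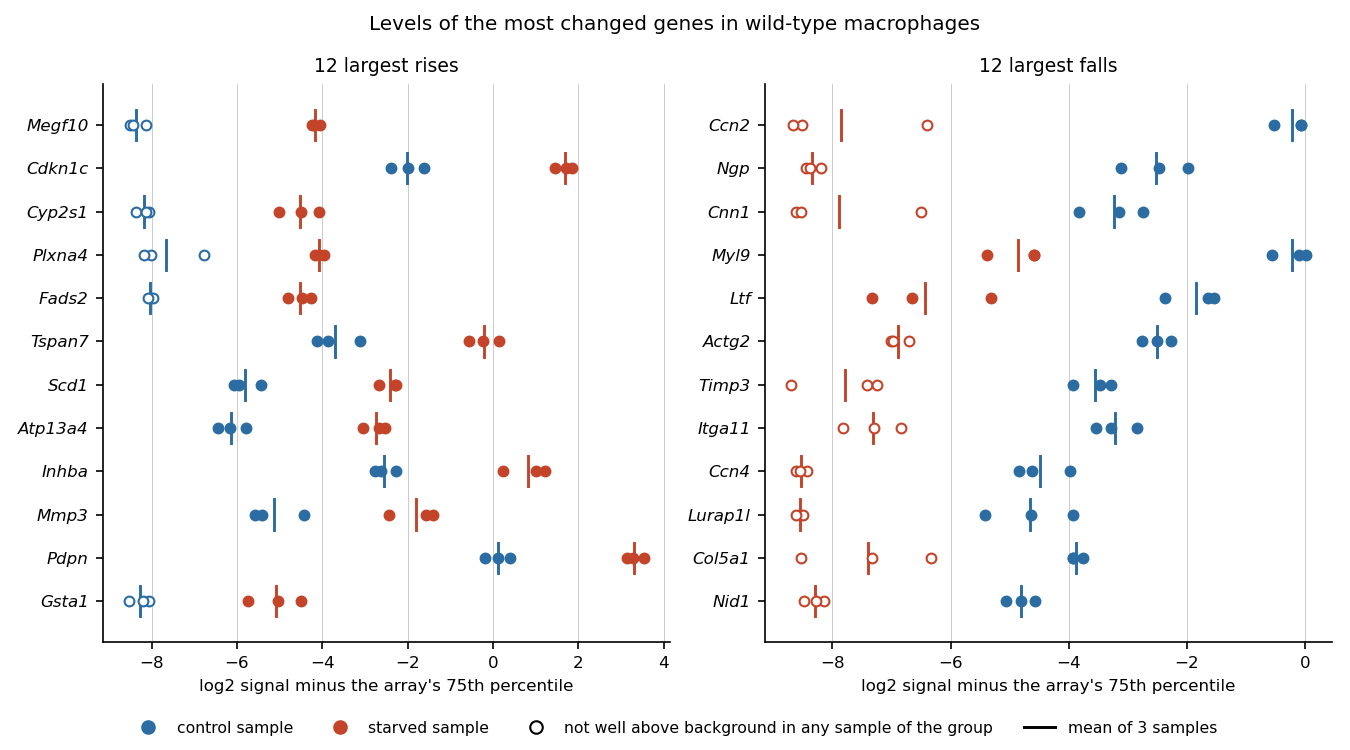
Signal of the 12 largest rises (left) and 12 largest falls (right) in each wild-type sample, as log2 signal minus the 75th percentile of the array; blue points are control samples, red points starved samples, open points groups in which the probe was never well above background, and vertical bars the means of 3 samples. The genes were chosen for groups that do not overlap, and Ccn2 drops from about the 75th percentile to a level not well above background.

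All 20 genes of cholesterol biosynthesis rose, with a median difference of 1.31 against 0.02 over all genes. They cover the route from acetyl-CoA to cholesterol. Acat2, which joins acetyl units at its first step, rose from -2.86, -2.88 and -2.88 to -1.44, -1.41 and -1.38; no starved sample overlapped a control sample. In the isoprenoid part of the route, Mvd differed by 1.69 ± 0.22, Idi1 by 1.48 ± 0.31 and the farnesyl diphosphate synthase gene Fdps by 1.75 ± 0.23. Sterol formation rose as well: Fdft1, which makes squalene, differed by 1.65 ± 0.20, Sqle by 1.32 ± 0.22, the ring-closing Lss by 1.43 ± 0.19 and Cyp51 by 1.60 ± 0.28. Hsd17b7, a 3-ketosteroid reductase of the route, had the smallest adjusted p of these genes in limma (adjusted p = 1.5e-06), with control samples at -2.67, -3.02 and -3.03 and starved samples at -1.17, -1.29 and -0.95. The control and starved samples did not overlap for any of the 20 genes, against 29.7% of all genes tested. Ebp (0.47) and Mvk (0.88) were the exceptions to stability: Ebp reached an adjusted p of 0.053 without starved sample 1, and Mvk one of up to 0.08 without control sample 2, control sample 3, starved sample 1 or starved sample 3.

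Of the 15 members with a RefSeq promoter 2 held the sterol response motif TCACNCCA (13.3%), against 4.66% of the 11223 tested genes with a promoter. The motif was searched on both strands, in the window from 250 bases before to 50 bases after each start site, and N stands for any base; a match is a description and no proof of binding. The promoters of Msmo1, a C-4 methyl sterol oxidase that rose by 1.30 ± 0.16, and of Hmgcs1, which makes HMG-CoA and rose by 1.04 ± 0.22, are printed because they held the only matches among these genes. They are the 250 bases before the start site, 5′ to 3′ along the gene, from RefSeq on GRCm38.p6 (Msmo1 at chr8:64733579-64733828, minus strand, and Hmgcs1 at chr13:119690101-119690350, plus strand), with the match in capitals.
Msmo1: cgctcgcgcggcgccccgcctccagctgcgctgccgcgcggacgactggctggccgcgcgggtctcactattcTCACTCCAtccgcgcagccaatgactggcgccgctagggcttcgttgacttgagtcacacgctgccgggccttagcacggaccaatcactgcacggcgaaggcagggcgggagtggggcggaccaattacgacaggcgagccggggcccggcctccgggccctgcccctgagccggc
Hmgcs1: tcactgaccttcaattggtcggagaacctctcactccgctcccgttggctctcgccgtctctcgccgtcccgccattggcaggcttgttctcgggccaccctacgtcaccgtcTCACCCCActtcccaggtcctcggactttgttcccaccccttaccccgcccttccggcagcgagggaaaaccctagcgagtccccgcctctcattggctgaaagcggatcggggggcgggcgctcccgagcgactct

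Part of the control and uptake genes of the same pathway rose. Of 16 tested, 7 rose and none fell, with a median of 0.48. Insig1, the sterol-sensing anchor of SREBP and itself a target of SREBP-2, rose from -2.51, -2.42 and -2.69 to -1.12, -1.41 and -1.37. Srebf2, which encodes SREBP-2, rose by 0.87 ± 0.17, and Srebf1 by 0.58 ± 0.12. The scavenger receptor genes Msr1 and Scarb1 rose by 0.78 ± 0.13 and 0.45 ± 0.11, and the ubiquitin ligase gene Mylip by 0.51 ± 0.11. Stard4 (0.74), a carrier of cholesterol, did not pass.

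Desaturase genes rose, whereas the enzymes that build fatty acid chains from acetyl-CoA mostly did not pass. Of 20 genes of fatty acid synthesis and desaturation, 5 rose and none fell. Scd1 and Scd2, which place the double bond of oleate, rose from -5.95, -6.06 and -5.43 to -2.29, -2.66 and -2.27 and from 2.59, 2.53 and 2.70 to 5.48, 5.23 and 5.38, differences of 3.41 ± 0.39 and 2.76 ± 0.23. Fads2, the desaturase of polyunsaturated fatty acids, was not well above background in the controls and rose at least 3.84-fold, and the elongase gene Elovl6 rose by 1.15 ± 0.21. The fatty acid synthase gene Fasn (0.53), the carboxylase gene Acaca (0.14) and the citrate lyase gene Acly (0.48) did not pass. In all, 7 of 14 targets of LXR, the oxysterol receptor that drives cholesterol export, rose and 1 fell. Among them were the cholesterol exporters Abca1 (0.73 ± 0.12) and Abcg1 (0.66 ± 0.13) and the phospholipid acyltransferase gene Lpcat3 (0.56 ± 0.13), whereas Apoe stood at 0.01. The LXR list shares Scd2, Srebf1 and Mylip with the lists above.

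Fatty acid carriers rose too. Fabp4, a cytosolic fatty acid carrier of macrophages and adipocytes, went from 0.91, 1.23 and 1.08 to 3.01, 2.78 and 2.92, a difference of 1.83 ± 0.13 (adjusted p = 5.6e-07). Fabp5 rose by 1.23 ± 0.17 and Plin2, the coat protein of lipid droplets, by 0.73 ± 0.12. Of 17 genes of lipid droplets and fatty acid handling, 5 rose and 1, the monoglyceride lipase gene Mgll (-0.71 ± 0.12), fell. Fatty acid oxidation showed 1 rise and 1 fall among 23 genes, beside 6.49% and 6.02% of all genes, with 2 rises without control sample 2. The fall, of the dehydrogenase gene Acadl (-0.32 ± 0.08), lost its call without control sample 2 or 3 or starved sample 1 or 3 (adjusted p up to 0.081). The thiolase gene Acaa2 rose by 0.54 ± 0.08, and the carnitine transferase gene Cpt1a stood at 0.04 (not passed).

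**Figure D2:**
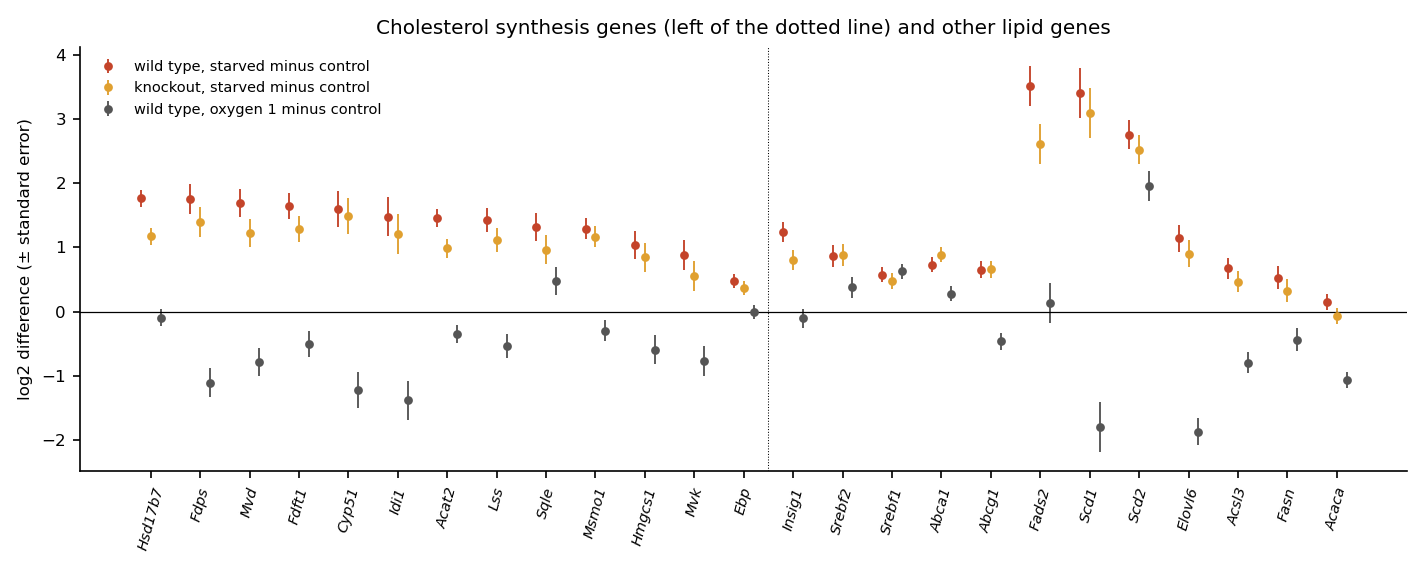
Difference of lipid genes from control cells on the log2 scale, with standard error bars, for starved wild-type cells (red), starved knockout cells (orange) and wild-type cells at oxygen 1 (grey, sharing its control samples with red). The 13 cholesterol synthesis genes shown, left of the dotted line, lie above 0 in starved cells of both genotypes, while most grey points lie below it.

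Mitosis genes fell together. Of 45 tested, 41 fell and none rose, with a median of -1.05, and between 35 and 40 passed when single samples were left out. Cdc20, the activator of the anaphase-promoting complex, fell from 1.16, 1.18 and 1.19 to -0.24, -0.19 and 0.12, a difference of -1.28 ± 0.11 (adjusted p = 2.6e-06). Ncapd2, a condensin subunit, fell from 1.11, 1.13 and 1.11 to 0.23, 0.18 and 0.17; the control and starved samples did not overlap. The mitotic cyclin genes Ccnb1, Ccnb2 and Ccna2 differed by -1.44 ± 0.20, -1.55 ± 0.20 and -1.23 ± 0.17. The kinase genes Plk1, Aurka and Aurkb differed by -1.29 ± 0.15, -1.06 ± 0.14 and -1.09 ± 0.20. Foxm1 and Mybl2, transcription factors of the G2 and M phases, fell as well, by 1.09 ± 0.16 and 1.02 ± 0.13, and Mki67, the proliferation marker Ki-67, by 1.34 ± 0.22. Cdk1 (-0.74), Tpx2 (-0.53), Pttg1 (-0.33) and Cdc25b (-0.04) did not pass.

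The cell cycle homology region, TTTGAA, is a promoter element through which cell cycle genes are repressed in resting cells. Searched as above on both strands, it was present in 25 of 36 mitosis promoters (69.4%) and in 14.9% of all tested genes with a promoter; of the 33 mitosis genes that fell and had a promoter, 24 held it. The 250 bases before the start site are printed for the 3 matching genes with the smallest adjusted p, with the match in capitals: Cdc20 at chr4:118437344-118437593 on the minus strand, Ncapd2 at chr6:125191587-125191836 on the minus strand and Ube2c, a ubiquitin-conjugating enzyme of mitosis that differed by -1.42 ± 0.16, at chr2:164769679-164769928 on the plus strand. The match in Ube2c reads on the other strand. It lies 18 bases before the start site in Cdc20, 29 in Ube2c and 123 in Ncapd2, counted from the first base of the match.
Cdc20: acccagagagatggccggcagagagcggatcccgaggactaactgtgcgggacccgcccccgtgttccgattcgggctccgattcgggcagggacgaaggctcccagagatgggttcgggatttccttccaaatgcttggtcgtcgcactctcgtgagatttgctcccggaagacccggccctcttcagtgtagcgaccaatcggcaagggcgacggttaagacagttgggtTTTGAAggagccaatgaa
Ncapd2: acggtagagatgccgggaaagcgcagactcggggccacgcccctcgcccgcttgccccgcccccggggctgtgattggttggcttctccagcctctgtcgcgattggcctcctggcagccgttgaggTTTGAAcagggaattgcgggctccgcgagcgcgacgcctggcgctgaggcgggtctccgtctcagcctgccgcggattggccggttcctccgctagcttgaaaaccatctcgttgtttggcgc
Ube2c: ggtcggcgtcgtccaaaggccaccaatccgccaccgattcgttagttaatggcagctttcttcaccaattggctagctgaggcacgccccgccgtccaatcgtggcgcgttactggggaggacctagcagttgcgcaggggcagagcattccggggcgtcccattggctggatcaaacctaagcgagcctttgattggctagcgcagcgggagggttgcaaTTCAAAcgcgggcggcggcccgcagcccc

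Most DNA replication genes fell too. Of 38 tested, 24 fell and 1 rose, with a median of -0.68, and between 18 and 23 fell when single samples were left out. Tk1, the thymidine kinase of S phase, fell from 1.83, 1.68 and 1.82 to 0.25, 0.27 and 0.58, and Uhrf1, which maintains DNA methylation at the fork, by 1.28 ± 0.15. The helicase subunit genes Mcm2, Mcm3, Mcm4, Mcm5 and Mcm7 fell, with differences between -0.96 and -0.60, and Mcm6 (-0.50) did not pass. The polymerase genes Pole and Pola1 fell by 1.03 ± 0.13 and 0.81 ± 0.14, and Pcna stood at -0.16 (not passed). Tyms, the thymidylate synthase gene, rose against the rest of the list, from -3.57, -3.73 and -3.54 to -2.43, -2.67 and -2.83. An E2F motif, TTTGGCGC or TTTCCCGC, was present in 10 of 32 replication promoters (31.2%) against 3.14% of all, and in 5 of the 20 among them that were called.

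The inhibitors of cyclin-dependent kinases did not move as a group. Of 17 such inhibitors and G1 cyclins, 3 rose and 3 fell. Cdkn1c, given above, and Cdkn1a, which encodes p21 and rose from 3.70, 3.70 and 3.52 to 4.67, 4.54 and 4.28, went up. Cdkn2c fell by 0.63 ± 0.11 and the cyclin E gene Ccne1 by 0.71 ± 0.14, whereas Cdkn1b, which encodes p27, stood at -0.28 and the cyclin gene Ccnd1 at 0.37, neither passed. Fewer dividing cells and less RNA of these genes per dividing cell cannot be told apart in bulk RNA, which holds for every cell type or state below.

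Genes of the ATF4 amino acid response were more often lower than higher in starved cells. Of 29 tested, 13 fell and 1 rose, with a median of -0.45, and without starved sample 1 the falls numbered 8. The rise, of the mTORC1 inhibitor gene Ddit4 (0.55 ± 0.15), lost its call without control sample 1 or 3 or starved sample 1 or 3. Nupr1, a stress-induced chromatin protein, fell from 4.23, 4.28 and 4.12 to 3.19, 3.23 and 3.33 (-0.96 ± 0.12, adjusted p = 7.9e-05). Aldh1l2, a mitochondrial folate enzyme, fell from -1.97, -2.30 and -2.41 to -3.73, -3.80 and -3.48. The amino acid transporter genes Slc7a5 and Slc7a1 differed by -1.04 ± 0.20 and -0.86 ± 0.18. The serine and one-carbon genes Psat1 and Shmt2 differed by -1.02 ± 0.20 and -0.70 ± 0.14. Atf4 itself (-0.36), Ddit3 (-0.22) and Chac1 (-0.58) did not pass. Asns, the asparagine synthetase gene, read 4.62, 4.42 and 4.62 and 3.69, 3.96 and 4.03 (-0.66 ± 0.20, adjusted p = 0.046), and lost its call whichever of the 6 samples was left out (adjusted p from 0.056 to 0.18).

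The ATF4 motif TGATGNAA was present in 8 of 24 promoters of this list (33.3%), against 3.03% of all, and in 4 of the 11 that were called. The 250 bases before the start of Nupr1 (chr7:126625471-126625720, minus strand) and Pck2 (chr14:55540016-55540265, plus strand) are shown as the called members that kept a match before the start site and had the smallest adjusted p; both matches, in capitals, read on the other strand. Pck2, a mitochondrial enzyme of phosphoenolpyruvate synthesis, differed by -0.70 ± 0.17 (adjusted p = 0.015), and reached 0.073 without control sample 1 and 0.061 without starved sample 1.
Nupr1: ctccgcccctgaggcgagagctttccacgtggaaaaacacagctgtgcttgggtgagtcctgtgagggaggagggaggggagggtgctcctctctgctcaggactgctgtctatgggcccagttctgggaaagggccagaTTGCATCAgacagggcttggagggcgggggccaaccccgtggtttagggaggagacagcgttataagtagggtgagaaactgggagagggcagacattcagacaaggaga
Pck2: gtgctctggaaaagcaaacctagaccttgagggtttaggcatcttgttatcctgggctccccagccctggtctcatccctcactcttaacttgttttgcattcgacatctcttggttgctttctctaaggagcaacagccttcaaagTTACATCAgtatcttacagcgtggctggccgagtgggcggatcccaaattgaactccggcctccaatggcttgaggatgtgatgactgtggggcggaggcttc

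Protein synthesis machinery was split. None of the 44 cytosolic ribosomal protein genes passed in limma (median -0.05), and 1 had an unadjusted p below 0.05. Of 33 genes of MYC and ribosome biogenesis, 7 fell and none rose (median -0.27), and 4 fell without control sample 1 or without starved sample 1. Myc, the growth-promoting transcription factor, fell from 0.37, 0.85 and 0.43 to -0.36, -0.32 and -0.51, the ribosome assembly gene Tsr1 by 0.57 ± 0.09 and the box C/D particle gene Nop58 by 0.49 ± 0.10. Of 19 cytosolic tRNA synthetase genes 5 fell, of which Yars (-0.73 ± 0.14) kept its call whichever sample was left out; the count was 2 without control sample 3 or starved sample 1, and 3 without control sample 2 or starved sample 3.

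Lysosomal genes rose in part. Of 57 tested, 13 rose and none fell, with a median of 0.19; the count was 6 without control sample 2, 7 without starved sample 1 or 2, and 8 without control sample 1, and 1 gene fell without starved sample 3. Atp6v0d2, a proton pump subunit enriched in osteoclasts and some macrophages, rose from -3.32, -3.43 and -3.44 to -0.62, -1.27 and -1.06, and the collagen-degrading protease gene Ctsk from -1.03, -1.73 and -1.49 to 0.73, 0.38 and 0.81. Gpnmb, a glycoprotein of lipid-laden macrophages, rose by 1.31 ± 0.15, Scarb2 by 0.82 ± 0.13, Ctsl by 0.76 ± 0.11 and Ctss by 0.43 ± 0.10. The structural genes Lamp1 (0.01) and Lamp2 (-0.35) did not pass. The TFEB motif TCACGTGA was present in 7 of 45 lysosomal promoters (15.6%) against 1.97% of all, and in 1 of the 11 that were called.

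Of 40 autophagy genes 2 rose, near the 6.49% of all genes that rose, and none fell. They were Atg101 (0.33 ± 0.08) and the LC3 gene Map1lc3a (0.50 ± 0.15), and neither kept its call in every omission. The number of rises was 0 without control sample 2, starved sample 1 or starved sample 2 and 1 without control sample 1 or 3, and their adjusted p reached 0.08 and 0.22. Ulk1 (-0.13), Becn1 (0.03), Map1lc3b (-0.06), Sqstm1 (-0.40) and Tfeb (0.02) did not pass. Of 31 genes of mTORC1 and nutrient sensing 3 rose, beside 6.49% of all genes. Among them was the inhibitor gene Ddit4l (0.76 ± 0.15), and the count was 1 without control sample 3 or starved sample 1. In the FOXO and insulin list 3 of 26 rose and 1 fell, beside 6.49% and 6.02% of all genes. The fall, of the stress gene Gadd45b (-0.53 ± 0.16), lost its call whichever sample was left out (adjusted p from 0.056 to 0.16). Igf1, the insulin-like growth factor, rose from 4.44, 3.92 and 3.93 to 5.31, 5.13 and 5.02, the kinase gene Sgk1 by 0.77 ± 0.09 and the atrogin-1 gene Fbxo32 by 0.77 ± 0.15, whereas Irs2 stood at -0.06 and did not pass. None of the 51 oxidative phosphorylation genes passed in limma (median 0.01), and 3 had an unadjusted p below 0.05.

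**Figure D3:**
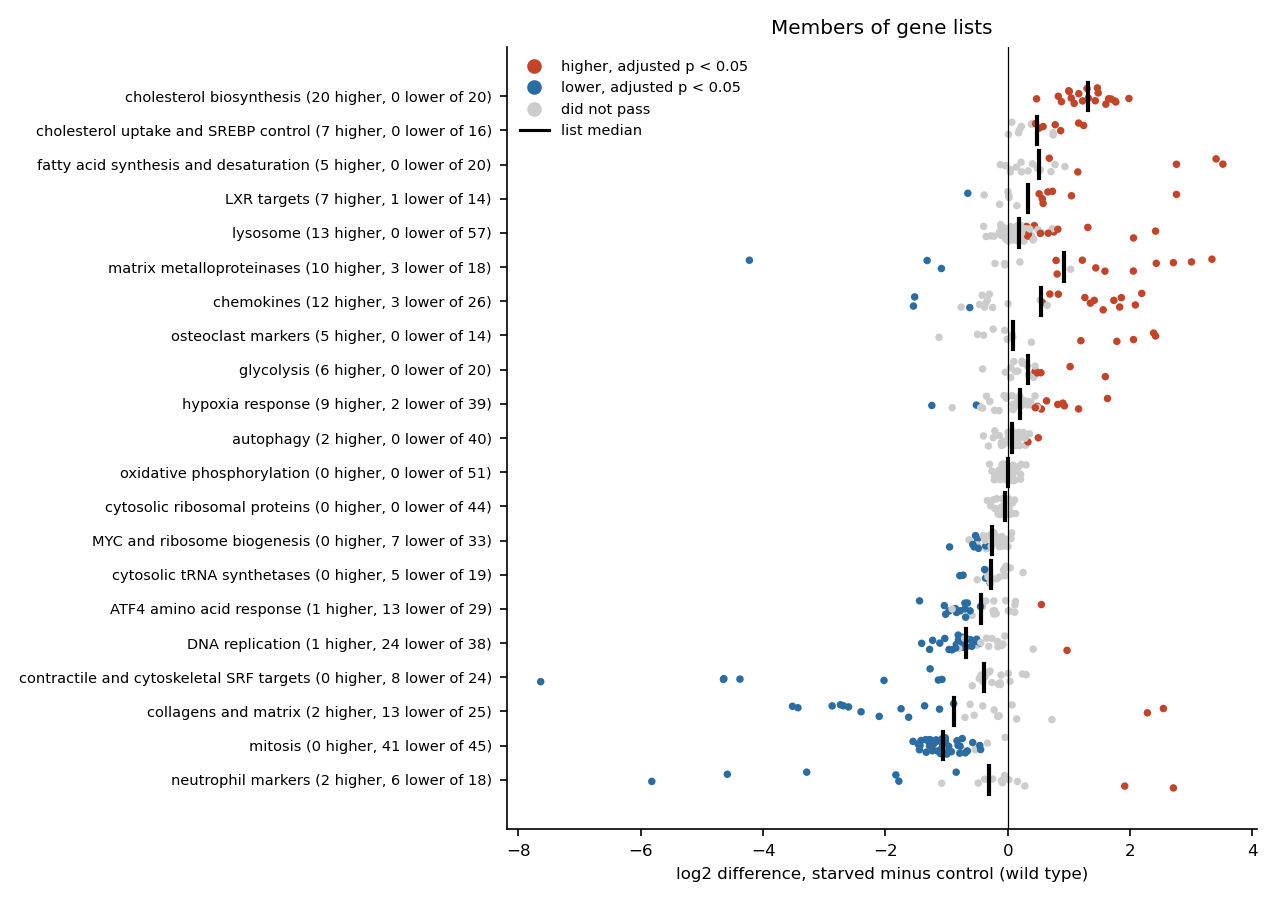
Log2 difference of starved from control wild-type cells for every tested member of 21 gene lists; each point is 1 gene, red for a rise and blue for a fall past an adjusted p of 0.05, grey otherwise, and the black bar is the list median. Cholesterol biosynthesis lies wholly right of 0 with 20 of 20 red, and mitosis lies left of it with 41 of 45 blue.

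Collagen and matrix genes fell, as did smooth muscle type contractile genes. Of 25 matrix genes, 13 fell and 2 rose, with a median of -0.88. Col1a1 and Col1a2, the chains of type I collagen, fell from 0.27, -0.18 and -0.62 to -3.38, -3.85 and -3.60 and from 0.38, 0.63 and -0.13 to -2.22, -2.17 and -2.80. Sparc, a collagen-binding matrix protein, fell by 2.74 ± 0.22, Fn1, fibronectin, by 2.40 ± 0.28 and Postn, periostin, by 2.87 ± 0.23. Spp1, osteopontin, rose from 4.02, 4.02 and 3.75 to 6.48, 6.13 and 6.04, and Lum, the proteoglycan lumican, by 2.54 ± 0.25. Of 24 contractile and cytoskeletal targets of SRF, 8 fell and none rose. Acta2, smooth muscle actin, fell from 0.46, -0.10 and -0.40 to -1.94, -2.18 and -1.99 and the matricellular gene Ccn1 by 1.27 ± 0.21, whereas Actb (0.24), Vcl (-0.11) and Srf (-0.12) did not pass.

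The list of stromal and endothelial markers shares Col1a1, Col1a2, Postn, Acta2 and Lum with the genes above. The list holds 15 genes, and Col1a1, Col1a2, Postn, Acta2 and Pdgfrb (-1.14 ± 0.17) fell while Lum rose. The summed linear signal of the list, in units of the 75th percentile, was 9.46 to 10.3 in control and 5.08 to 8.27 in starved samples, without overlap. The endothelial genes Cdh5 (0.12) and Pecam1 (-0.08) and the stromal genes Lepr (0.17), Thy1 (-0.41), Dcn (0.72) and Col3a1 (-0.55) did not pass. Each marker of this list was well above background in at least 1 control sample and 1 starved sample. The part of such cells in the fall of matrix and contractile genes was not tested.

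Extracellular proteases rose while their inhibitors moved in both directions. Of 18 genes of metalloproteinases, the plasminogen system and their inhibitors, 10 rose and 3 fell, with a median of 0.92, and these counts were the same whichever sample was left out. Mmp3, the stromelysin gene, rose from -5.58, -4.43 and -5.42 to -1.56, -1.40 and -2.45, and Mmp12, macrophage elastase, from -1.63, -2.11 and -2.73 to 1.41, 0.82 and 0.32. Mmp8 differed by 2.71 ± 0.35, Mmp10 by 2.43 ± 0.26, Mmp13 by 2.05 ± 0.22 and Plau, the urokinase gene, by 1.44 ± 0.15. Timp2, an inhibitor of metalloproteinases, rose from 2.43, 2.76 and 2.58 to 4.03, 3.88 and 3.53, whereas Timp1 fell by 1.32 ± 0.24 and Timp3 by at least 7.33-fold. Mmp9 (-0.05) and Mmp14 (-0.05) did not pass.

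Chemokines rose more often than they fell. Of 26 chemokine and chemokine receptor genes, 12 rose and 3 fell, with a median of 0.55. Between 9 and 12 rose, and 2 or 3 fell, when single samples were left out. Cxcr4, the receptor of CXCL12, rose from -2.29, -2.18 and -2.13 to 0.10, 0.00 and -0.14 (2.19 ± 0.16, adjusted p = 6.5e-07). The monocyte attractants Ccl2 and Ccl7 rose from 5.12, 5.21 and 5.27 to 6.49, 6.58 and 6.58 and from 2.80, 3.57 and 3.43 to 5.06, 5.28 and 5.04. The receptor gene Cx3cr1 differed by 2.09 ± 0.37 and the neutrophil attractant gene Cxcl3 by 1.83 ± 0.28. Cxcl2, also a neutrophil attractant, fell from 1.09, 1.32 and 1.08 to -0.46, -0.47 and -0.20, and Cxcl10, an interferon-induced attractant of T cells, from 2.07, 2.82 and 2.82 to 1.33, 0.77 and 1.03. Ccl3 (-0.25), Ccl4 (-0.33) and Cxcl1 (-0.42) did not pass.

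Among 24 cytokine and inflammation genes, 5 rose and 4 fell, with 2 falls without starved sample 1. Inhba, given above, went from -2.27, -2.63 and -2.76 to 1.00, 1.23 and 0.23. Il1rn, the antagonist of the interleukin-1 receptor, rose from -1.67, -1.87 and -1.86 to 0.80, 0.58 and 0.48, Il1a by at least 1.87-fold from a control level not well above background and the granulocyte growth factor gene Csf3 by 2.08 ± 0.28. Il6 fell from -1.05, -0.64 and -0.59 to -1.37, -1.85 and -1.71 and Csf1, the macrophage growth factor, by 0.68 ± 0.12. Il1b read 0.00, -0.16 and -0.17 and 0.88, 0.58 and 0.81 and did not pass (0.87 ± 0.27, adjusted p = 0.0504). The activin and TGF-beta list was even, with 7 rises and 7 falls among 29: besides Inhba, the inhibitor gene Smad7 rose by 0.78 ± 0.15, while the ligand genes Tgfb2 (at least 1.94-fold) and Tgfb3 (-0.93 ± 0.18) and the binding protein genes Fstl1 (-1.50 ± 0.17) and Ltbp2 (-1.40 ± 0.18) fell. Of 17 ERK feedback genes 4 rose and 1 fell. The phosphatase gene Dusp4 rose from -1.68, -1.58 and -1.75 to 0.31, 0.28 and -0.15 and Dusp6 by 1.21 ± 0.15, whereas the phosphatase gene Dusp2 fell (-1.09 ± 0.25), with an adjusted p of 0.052 without starved sample 1; the falls numbered 2 without starved sample 2 or 3, and Spry2 (0.28) and Spred1 (0.03) did not pass. Of 35 interferon-stimulated genes 4 fell and none rose, beside 6.02% and 6.49% of all genes. Cxcl10 was the one that kept its call in every omission. The count was 1 without control sample 2, 2 without control sample 3 or starved sample 1, and 7 without starved sample 3.

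**Figure D4:**
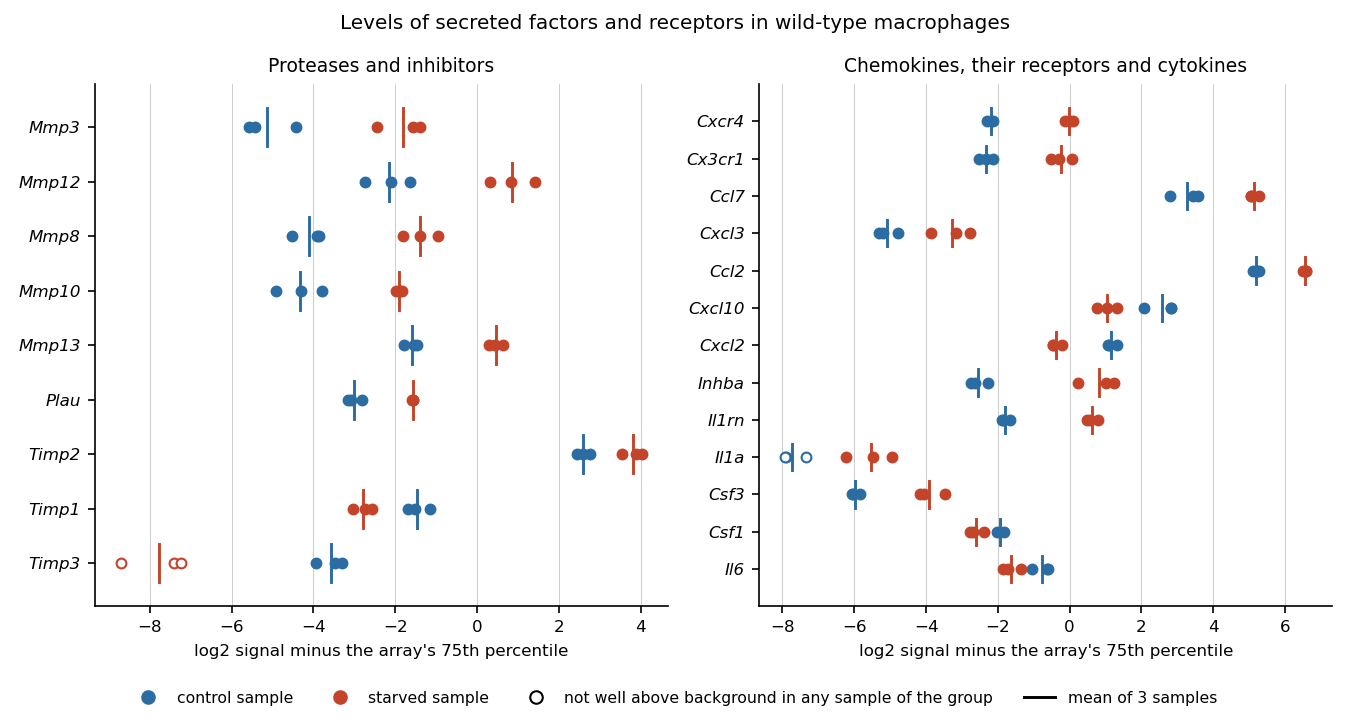
Signal of proteases and their inhibitors (left) and of chemokines, receptors and cytokines (right) in each wild-type sample, as log2 signal minus the 75th percentile of the array; blue points are control and red points starved samples, open points groups never well above background, and bars means of 3 samples. The metalloproteinases Mmp3, Mmp8, Mmp10, Mmp12 and Mmp13 shift right in starved samples, and Timp1 and Timp3 shift left.

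The labelled cell type was checked against macrophage markers. Csf1r, Spi1, Adgre1, Itgam, Lyz2, Fcgr1 and Mertk were well above background in all samples, and none passed between starved and control cells. Adgre1, the surface protein F4/80, read 6.96, 6.99 and 6.76 and 6.68, 6.86 and 6.61, and Csf1r, the receptor of the growth factor in the culture, read 6.46, 6.14 and 6.32 and 6.71, 6.50 and 6.69 (0.33 ± 0.11, adjusted p = 0.082). In the wider list of 29 macrophage genes, 7 rose and 2 fell, beside 6.49% and 6.02% of all genes. Trem2, a lipid-binding receptor, rose from 4.91, 4.35 and 4.43 to 6.13, 5.75 and 6.03 and the Fc receptor gene Fcgr3 by 0.79 ± 0.15, whereas Fcgr4 fell by 0.71 ± 0.12 and the scavenger receptor gene Marco by 0.57 ± 0.12. The summed signal of the list was 1086 to 1253 in control and 1086 to 1162 in starved samples, which overlap.

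Of 27 engulfment receptors and bridging molecules, 5 rose and 1 fell. The fall, of the scavenger receptor gene Stab2 (-0.77 ± 0.19), lost its call without control sample 3, starved sample 1 or starved sample 2 (adjusted p up to 0.068). Mfge8, which bridges phosphatidylserine on dead cells to integrins, rose from 4.47, 4.35 and 4.20 to 6.52, 6.13 and 6.22, and Itgb3, a subunit of the integrin it binds, from -2.94, -3.40 and -2.94 to -0.23, -0.98 and -0.92. Havcr2, the receptor TIM-3, rose by 1.70 ± 0.14, and Megf10 is given above. The TAM receptor genes Mertk (-0.13) and Axl (-0.59), and Timd4 (-1.17), did not pass. Genes of alternative activation split into 3 rises and 4 falls among 17. The mannose receptor gene Mrc1 rose by 1.30 ± 0.29 and the lectin gene Cd209f fell from 4.11, 3.90 and 4.52 to 1.52, 1.70 and 1.86, with Arg1 at 0.30 (not passed); the falls numbered 2 without control sample 1 and 1 without control sample 3, starved sample 1 or starved sample 2.

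Markers of other marrow cells moved unevenly. Of 18 neutrophil markers 6 fell and 2 rose, and between 4 and 7 fell when single samples were left out. S100a9, a calcium-binding protein of neutrophils and monocytes, fell from 3.29, 2.62 and 3.30 to -0.66, -0.34 and 0.35, and Camp, the cathelicidin gene, by 1.78 ± 0.19, beside Ngp and Ltf. S100a8 (0.02), whose protein pairs with that of S100a9, and the granule genes Elane (0.28), Lcn2 (-0.25) and Mmp9 (-0.05) did not pass, while Mmp8 and Stfa3 (1.91 ± 0.31) rose. The summed signal of the neutrophil list was 77.5 to 92.7 in control and 63.1 to 84.8 in starved samples, with overlap. Among 10 lymphocyte markers 3 rose and 2 fell (1 fell without control sample 2 or 3 or starved sample 1), with the T cell gene Cd5 higher by 1.23 ± 0.18, and the summed signals were 10.7 to 11.6 and 10.2 to 11.8. Of 10 dendritic cell markers 2 fell, and of 8 markers of mast cells, basophils and eosinophils 1 fell, the histidine decarboxylase gene Hdc (-1.97 ± 0.24).

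Of 14 osteoclast markers, 5 rose and none fell (1 fell without starved sample 3). Besides Atp6v0d2, Ctsk and Itgb3, the fusion gene Dcstamp rose from -5.68, -6.69 and -5.98 to -4.56, -4.26 and -4.19, whereas Acp5 (-0.39), Nfatc1 (0.08), Ocstamp (-0.01), Mmp9 (-0.05) and Calcr (-1.12) did not pass. The summed signal of the list was 70.7 to 78.9 in control and 62.1 to 72.6 in starved samples. In the list of erythroid and megakaryocyte markers Vwf rose by 1.83 ± 0.24 and Pf4 by 1.13 ± 0.26, while Epor (-0.73 ± 0.14) and Gp9 (-0.90 ± 0.18) fell. Its summed signal was 8.5 to 9.14 against 15.6 to 18.7, higher in every starved sample, while Hba-a1 stood at 0.11 and Ppbp at -0.20 (not passed). The median difference of the 9 genes of this list was 0.04, so the sum does not stand for most of them. The part of any of these cell types in the results was not tested.

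Survival genes were mixed. Of 37 pro-apoptotic genes 4 rose and 4 fell, beside 6.49% and 6.02% of all genes. The falls numbered 2 without control sample 2 or 3 or without starved sample 1 or 2. Bcl2l11, which encodes BIM, rose from -1.81, -1.65 and -1.74 to -0.56, -0.61 and -0.85, while the death receptor gene Fas fell by 0.74 ± 0.11 and Bok at least 4.21-fold. Of 33 anti-apoptotic genes 5 fell and 1, Sgk1, rose, with 2 rises without control sample 1. Bcl2a1d, a BCL-2 relative of myeloid cells, fell from 6.20, 6.07 and 5.97 to 4.92, 4.98 and 5.04; the array's Bcl2a1 copies are near-identical, so its reading is uncertain between them. Bcl2 (0.36), Bcl2l1 (0.34) and Mcl1 (-0.15) did not pass. Of 29 p53 targets 8 rose and 2 fell, with Mdm2 (0.56 ± 0.10) and Phlda3 (0.73 ± 0.14) among the rises. The rises numbered 4 without control sample 3 or starved sample 1, and 5 without control sample 1 or 2 or starved sample 2. The falls numbered 1 without control sample 2 or 3 or starved sample 1 or 2.

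Egln3, the gene targeted in the knockout, rose in starved wild-type cells from -3.10, -3.51 and -3.77 to -2.19, -2.35 and -2.36 (1.16 ± 0.16). In knockout cells its probe averaged -3.95 in control and -2.41 in starved samples, and whether the probe lies in the deleted part is unstated in the labels, so this reading does not check the labels. Of 39 hypoxia response genes, 9 rose and 2 fell in starved cells, with a median of 0.20. Between 6 and 8 rose when single samples were left out. Of the falls, Ndrg1 (-0.51 ± 0.15) lost its call whichever sample was left out (adjusted p from 0.066 to 0.11), and the cytokinesis gene Anln (-1.24 ± 0.18) kept it. The wild-type samples at oxygen 1, which share the control samples, had a median of 2.58 from control. Bhlhe40, a transcriptional repressor, rose by 1.63 ± 0.19, Ankrd37 by 0.90 ± 0.12 and the mitophagy receptor gene Bnip3l by 0.63 ± 0.08, whereas Vegfa (0.09), Slc2a1 (0.36) and Car9 (-0.22) did not pass. Of 20 glycolysis genes 6 rose, led by Aldoc (1.60 ± 0.20) and Eno2 (1.02 ± 0.16); the count was 2 without control sample 3 and 3 without control sample 2 or starved sample 1, and 1 gene fell without starved sample 3. The core HIF motif ACGTG was present in 27 of 36 hypoxia promoters (75%) against 27.8% of all, and in 7 of the 8 that were called. Those 7 include Anln, which fell. As for the other motifs, the share over a list describes its members and not a change in starved cells.

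The same comparison in knockout cells used its own control samples. In the knockout 2812 genes passed (13.5%). Of the 2602 wild-type genes, 2072 also passed in the knockout in the same direction (79.6% of the wild-type and 73.7% of the knockout genes), 2584 had the same sign, and none passed in the opposite direction. The difference between genotypes was tested directly. No gene passed it (0%), 216 genes had an unadjusted p below 0.05 (1.04%), and the smallest adjusted p was 1.00 in limma. Where no gene differs, a well-calibrated test would give a share near 0.05, so 1.04% is low. Such a share can mean that the test was too strict, which was not tested. The lack of calls therefore does not show that the genotypes respond alike. Among the 2602 genes, the median 95% interval of the difference reached 0.47 to each side. These intervals are not adjusted for the number of genes, so the difference needed to pass was larger.

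In the knockout 19 cholesterol synthesis genes rose (median 0.98), 39 mitosis genes fell and 10 protease genes rose (median 1.07). Hsd17b7 differed by 1.77 in wild-type and 1.17 in knockout cells; the wild-type minus knockout difference was 0.59, with a 95% interval from 0.18 to 1.01, and did not pass the adjusted threshold. Paqr3 had the smallest p of this test, with differences of 0.75 and -0.60, and did not pass it either. Ccn2 differed by -7.08 in the knockout, Cdkn1c by 4.03, Scd1 by 3.10 and Pdpn by 3.16.

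**Figure D5:**
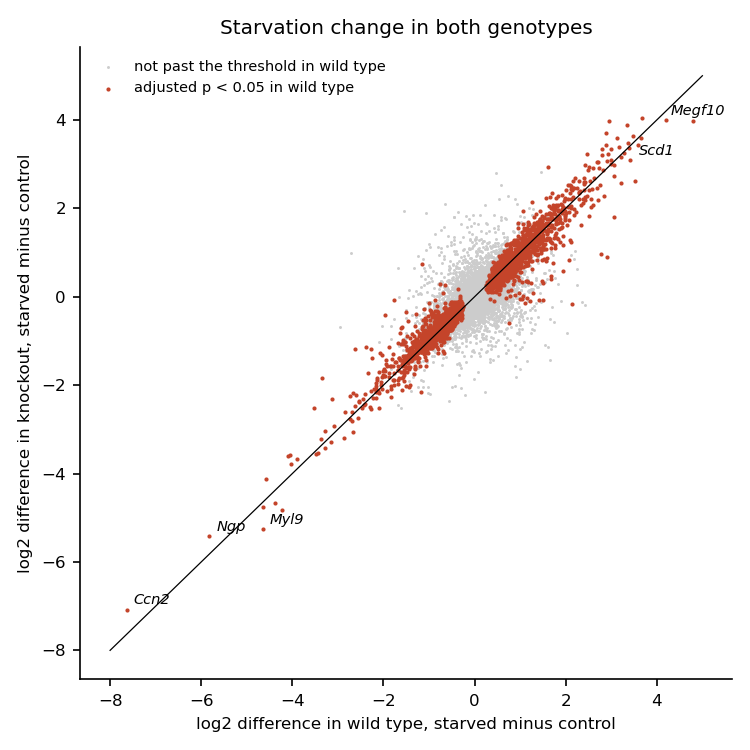
Log2 difference of starved from control cells for each gene in wild-type (horizontal) and knockout cells (vertical); red points passed an adjusted p of 0.05 in wild-type cells, grey points did not, and the line marks equal differences. Of the 2602 red genes, 2584 have the same sign in both genotypes.

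Starved wild-type cells were then set directly against wild-type cells at oxygen 1, which were fed. Between these groups 7934 genes differed (38.1%), 3804 higher and 4130 lower in starved cells. The oxygen 1 samples lay on slides 3, 2 and 1, and the starved and control samples on slides 2, 5 and 4. Only slide 2 was shared, so slide and oxygen can be told apart only in part. With the slide as a block 6967 genes differed. All 20 cholesterol synthesis genes were higher in starved cells; their median from the shared controls was 1.31 under starvation and -0.56 at oxygen 1. Scd1 was among the genes with the largest fitted differences upward (5.20). It read -7.78, -8.19 and -6.86 at oxygen 1, against -5.95, -6.06 and -5.43 in control and -2.29, -2.66 and -2.27 in starved cells, and its probe was not well above background in any sample at oxygen 1. Every oxygen 1 sample lay below, and every starved sample above, the control samples. Of the genes named above, Mmp3 (4.20), Fads2 (3.38) and Ccl7 (3.36) followed among the 8 largest differences upward, with Omg (3.57), Psrc1 (3.53), Map1a (3.44) and Kcnj10 (3.35). Scd1, Omg, Map1a, Fads2 and Kcnj10 were not well above background at oxygen 1, so their differences depend on readings near background and have no order. Mmp3 was well above background in 1 sample at oxygen 1.

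Of the 8 largest fitted differences downward, Ccn2 read near its control level at oxygen 1 and the other genes read above theirs. Mgarp, a mitochondrial protein gene, differed by -8.87, the arginase gene Arg1 by -8.18 and the peptide hormone gene Apln by -5.75, while Gipr, Ppp1r3g, Smtnl2 and Rcor2 lay between -7.92 and -6.01. Ppp1r3g and Apln were not well above background in starved cells, and Arg1 and Smtnl2 were so in 1 starved sample each. These differences therefore also depend on readings near background. Arg1 read 1.41, 1.46 and 1.63 at oxygen 1, -6.27, -6.80 and -6.96 in starved and -6.11, -8.02 and -6.80 in control cells. Ccn2 read 0.17, 0.00 and -0.27 at oxygen 1 against -0.06, -0.07 and -0.53 in control cells, while its probe was not well above background in starved cells. Of the hypoxia genes, 35 of 39 were lower and 2 higher in starved cells. Mitosis genes were below control in both conditions, with medians of -1.05 under starvation and -1.61 at oxygen 1, and 26 of 45 were higher and 1 lower in starved cells. Of the replication genes 29 of 38 were higher in starved cells. Cdkn1c read 0.24, 0.87 and 1.09 at oxygen 1, above every control sample and below every starved sample, and the test between these groups gave 0.95 (limma adjusted p = 0.031).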

How the data were processed

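Total RNA (200 ng per sample) was hybridised to 1-colour Agilent mouse arrays, 1 label per array. The deposited values used are Agilent's processed spot intensity on a linear scale, made by the authors with Feature Extraction 10.7.3.1, per the file headers, with a design annotated on mm9. The authors' deposited log2 table served as an alternative. The submitters' processing notes name limma without a version.

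Arrays of one sample were averaged. Intensity was divided by each array's 75th percentile and taken to log2, with flagged spots left out. The brightest probe stood for each gene. A gene was kept if its probe exceeded background clearly in 3 or more of 18 samples with 2 or more values per group, leaving 20813 genes, 14008 with a symbol. limma 3.58.1 in R 4.3.3 fitted 6 group means over 18 samples (12 residual degrees of freedom), with Benjamini-Hochberg adjustment over all genes and a threshold of 0.05. The script was tested on simulated data. The number of arrays limits the precision.

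Genes were named by this rule: the 12 largest rises and 12 largest falls past the threshold, without overlap between groups, the same way on all 3 slides, clearly over background throughout 1 group of 3, with a symbol; the 4 members of each list with the smallest adjusted p; called members of lists described; and the 8 largest differences each way from oxygen 1. Members of a list that did not pass and are named beside these were chosen after their values were seen. The comparison, the members and the lists were chosen with earlier results of these data known.

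Alternatives were quantile normalisation, the authors' table, other filters, the median of a gene's probes, a fit of only the groups compared, slide and replicate number as blocks, a trended prior, and leaving out each sample. Background correction with normexp was planned on mean spot signals and was run on median spot signals with an offset of 50, a choice made after seeing the data. Same-numbered control and starved samples lay on one slide. Some genes that the naming rule covers are not reported here; they remain in the counts and medians.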

Additional observations from a re-analysis of the deposited data

How the results depend on the processing

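The 1350 genes that rose and 1252 that fell in starved wild-type cells stayed within 1.5 times of those counts under every alternative except the replicate block and the omission of single samples. Whether the numbers pair the samples was not settled. Same-numbered control and starved samples correlated in their deviations at 0.0923, 0.225 and 0.0021. Control 1 correlated best with starved 3 (0.125), control 2 with starved 2 (0.225) and control 3 with starved 2 (0.0876). With 3 samples per group these correlations cannot show that pairing is absent. With the replicate block, fitted to the groups compared, 1259 genes passed (703 higher, 556 lower), 1141 of them among the 2602. Against oxygen 1, where same-numbered samples shared no slide, it gave 3852 (1713 higher, 2139 lower). Leaving out 1 sample gave 1695 to 2565 genes, 899 to 1388 higher and 796 to 1177 lower. Against oxygen 1 it gave 6262 to 8307, with 2929 to 4285 higher and 3333 to 4022 lower. With the slide as a block 2565 genes passed, 2347 of them shared, and 6967 differed from oxygen 1 (3347 higher, 3620 lower). A fit of only the groups compared, without a block, gave 1970 genes. In the list of cholesterol uptake and SREBP control, the 7 rises became 3 with the replicate block, where Srebf1, Mylip, Msr1 and Scarb1 did not pass, and 9 with the slide as a block, where those 4 did. No gene passed the test between genotypes under any alternative run. Hif3a turned to 0.13 (adjusted p = 0.807 in limma) with the median of a gene's probes. Plxna4 did not pass there (1.52, adjusted p = 0.211). Of 6435 single-gene values, 5654 kept direction and call, 780 lost the call and 1 reversed; the causes were not tested. Genes not well above background have only a bound.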
